A study of Mus musculus with 8 samples.

Results

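Methylation was described at 10 CpG islands that lie at 9 imprinted genes, which are Mcts2, Gnas, Inpp5f, Plagl1, Grb10 with 2 islands, Zrsr1, Peg13, Airn and Igf2r. The islands were picked out by gene and by position on GRCm38, by a rule that uses no methylation value although earlier results of these data were known when it was written, and they are 10 of the 7461 islands with a value among 13840 listed. Reduced representation bisulfite sequencing (RRBS), which cuts DNA at CCGG sites and reads unconverted cytosines as methylated, gave the percentage of methylated calls per island in 8 libraries. The libraries came from male mouse embryonic stem cell (mESC) lines under differentiation into neuromesodermal progenitors, and 2 lines of each genotype were collected on day 2 and again on day 2.5. The Smchd1 wt lines were Smchd1 fl/+ with the floxed allele intact. The Smchd1 matΔ lines were Smchd1 del/+, from oocytes in which Zp3-Cre had deleted Smchd1, so that the maternal supply of this chromatin protein was missing while the paternal allele stayed intact. All lines were F1 cells of a C57BL/6 mother and a Castaneus father, and each line was derived from 1 blastocyst in 2i and LIF. Before differentiation the cells were moved stepwise into a mix of mostly serum medium with some 2i medium left, both with LIF. Day 2 cells had been in N2B27 medium with bFGF, and day 2.5 cells had in addition received the Wnt activator CHIR99021 from day 2. The methylation table holds no RNA, so neither the cell type nor the Smchd1 deletion could be checked in it. Because reads were not split by parent, a value is the average over the maternal and the paternal copy.

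Imprinted genes are expressed from the copy of a single parent. The choice is inherited as DNA methylation that the oocyte or the sperm places on a control region, and this mark is kept on that parent's copy through the wave of demethylation after fertilisation, with the zinc finger protein ZFP57 binding a short methylated motif at many such regions. Of the 10 islands, 7 belong to regions known for methylation from the oocyte. These are the promoters of Mcts2, a retrogene inside H13, of Plagl1, which encodes a zinc finger protein of growth control, of Zrsr1, a retrogene inside Commd1, and of the non-coding RNAs Peg13 and Airn, together with the internal promoter of Grb10, which encodes an adaptor protein that restrains growth, and the exon 1A region of Gnas, which encodes the stimulatory G protein alpha subunit. The other 3 islands are the main Inpp5f promoter, the upstream Grb10 promoter and the Igf2r promoter. Igf2r encodes the receptor that clears IGF2 and is silenced in cis by Airn, and its promoter is known to gain methylation on the silent paternal copy only after implantation. A germline-marked island with 1 methylated and 1 unmethylated copy, read equally, would stand at 50%.

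In the GENCODE annotation of the same build, Peg13 (chromosome 15, 72809538 to 72810123, 586 bp) lay wholly within an exon of the non-coding Peg13 transcript, 201 bp from its start and inside Trappc9. The Airn island (chromosome 17, 12741441 to 12742489, 1049 bp) lay 43 bp from the Airn start, in an intron of both Airn and Igf2r. The Igf2r island (chromosome 17, 12769059 to 12770009, 951 bp) held the Igf2r start and 134 coding and 131 UTR bases of it. These positions put 26570 bp between the Airn and Igf2r islands. Plagl1 (chromosome 10, 13090533 to 13091299, 767 bp) held 22 annotated transcript starts, and Mcts2 (chromosome 2, 152686810 to 152687230, 421 bp) held 1. Zrsr1 (chromosome 11, 22971975 to 22972993, 1019 bp) held a start of Zrsr1 and a start of Commd1. Another listed island, 8964 bp away and without a value, also held a Commd1 start. Of the Grb10 islands, the internal one (chromosome 11, 12025555 to 12026580, 1026 bp) and the upstream one (12036490 to 12038108, 1619 bp) held 1 Grb10 start each and were 9910 bp apart. The Inpp5f island (chromosome 7, 128611383 to 128611840, 458 bp) lay 23 bp from the start of the main transcript, over 97 coding and 212 UTR bases. The island at the later-starting Inpp5f transcript, the form known to be imprinted, was listed (128687970 to 128688582) without a value. The Gnas island (chromosome 2, 174327294 to 174331145, 3852 bp) was the longest and joined 6 upstream exon 1A type starts to 4 downstream main starts.

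The letters are shown for 4 germline-marked islands, Peg13 and Airn because they carried the highest levels and Plagl1 and Mcts2 because they stayed near 0. Each is the 120-base window of the island with the most CpGs outside annotated UTRs, read from GRCm38 on the plus strand, 5′ to 3′, with capitals marking CpGs. The windows are chr15:72809686-72809805 for Peg13 (12 CpGs), chr17:12741708-12741827 for Airn (13), chr10:13091025-13091144 for Plagl1 (13) and chr2:152686866-152686985 for Mcts2 (16).
Peg13: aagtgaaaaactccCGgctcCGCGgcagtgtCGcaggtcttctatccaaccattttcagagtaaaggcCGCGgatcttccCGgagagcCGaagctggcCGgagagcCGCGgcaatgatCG
Airn: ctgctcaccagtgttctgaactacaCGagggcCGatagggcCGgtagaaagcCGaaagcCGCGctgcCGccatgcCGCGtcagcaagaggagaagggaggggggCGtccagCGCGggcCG
Plagl1: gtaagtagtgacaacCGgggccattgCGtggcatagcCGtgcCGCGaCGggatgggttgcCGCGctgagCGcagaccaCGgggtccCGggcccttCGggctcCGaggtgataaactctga
Mcts2: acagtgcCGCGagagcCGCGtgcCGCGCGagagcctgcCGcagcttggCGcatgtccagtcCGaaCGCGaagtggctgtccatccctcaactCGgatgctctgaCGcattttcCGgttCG
All 4 windows hold dense CpGs and at least 1 CCGG site, the cutting site of the method, with 3 in the Peg13 window, 2 in the Plagl1 window and 1 each in the other two.

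None of the 10 islands stood at the level of 1 methylated allele in any library. Of the 80 values, 0 lay between 25 and 75%, the range nearer to 50 than to 0 or 100, and over all islands 0.844% of the 59688 values did. The germline-marked islands held 56 of the 80 values, of which 0 lay in that range. The share of all islands is small as well, so that the count of members inside the range does not set them apart, and the level itself is the description. There were 25 values at 0 and 57 under 2%, and 19 lay from 2 to under 10%, which left 4 of at least 10%. The highest value was 21.9%, at Peg13, 28.1 points below 50%. The next was 20.2% at Airn, 29.8 points below, and no other island exceeded 9.34%. Among all islands, 28 lay between 25 and 75% in every library, so values of that size were recorded in these cells. By the mean over the 8 libraries 7 islands were under 2% and the 3 others, Peg13 (7.99%), Airn (6.497%) and Igf2r (5.61%), stood between 5 and 10%, a level that 302 of the 7461 islands reached or passed. At the level of group means, the upper end of the 95% interval from limma was under 50% for all 40 combinations of island and group and under 25% for 39. The exception was Peg13 in Smchd1 matΔ at day 2, with an interval of 14.2 to 25.9%. For Gnas and for the 3 promoters without a germline mark, 50% was not the level of a kept mark. Their absence from the range of 25 to 75% and their intervals under 50% therefore do not bear on whether a mark was kept.

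**Figure D1:**
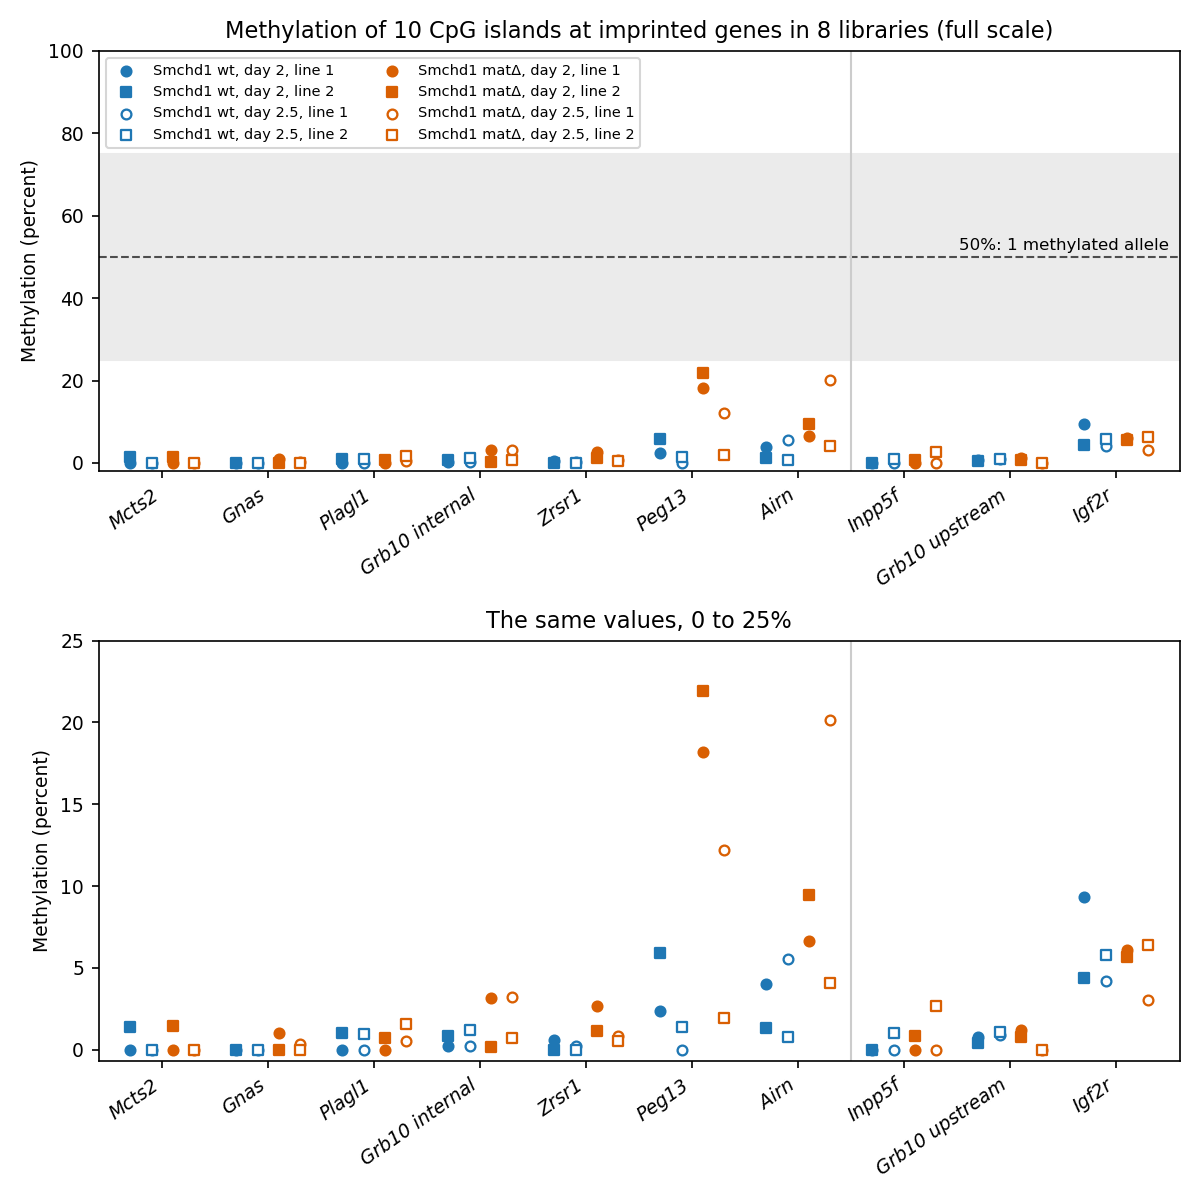
Percent methylation of the 10 islands in each of the 8 libraries (vertical axis, percent), on the full scale above and from 0 to 25% below, with the 7 germline-marked islands left of the grey line. Colour is the genotype, symbol the line and filling the day, and the grey band with the dashed line marks 25 to 75% and 50%. All 80 points lie below the band, and the highest are Peg13 at 21.9% and Airn at 20.2%, both in Smchd1 matΔ.

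**Figure D2:**
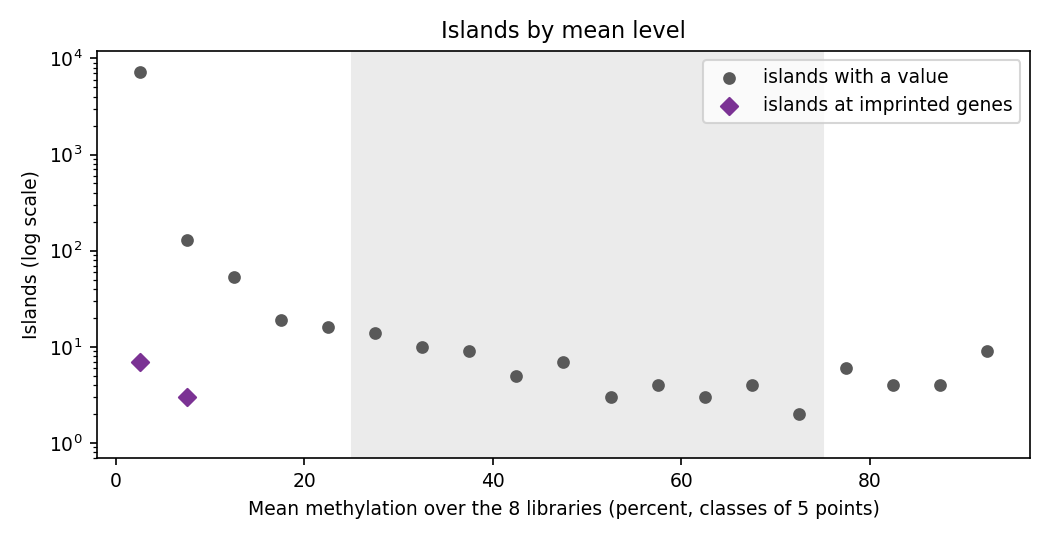
Number of islands (vertical axis, log scale) by mean methylation over the 8 libraries in classes of 5 percentage points (horizontal axis). Grey points are all islands with a value and purple diamonds the islands at imprinted genes, of which 7 fall under 5% and 3 between 5 and 10%, outside the grey band of 25 to 75%.

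Among the germline-marked islands, Mcts2, Gnas and Plagl1 had the lowest means over the 8 libraries. Mcts2 was listed at 0 in 6 libraries and at 1.39 and 1.47% in line 2 of Smchd1 wt and of Smchd1 matΔ at day 2. Gnas was listed at 0 in 6 libraries and at 1.01 and 0.347% in Smchd1 matΔ line 1 at day 2 and day 2.5. These islands had no value that separated the genotypes at either day. The Gnas value averages 143 CpGs in the upstream part, with the exon 1A starts, and 217 in the downstream part, whose promoter is known to be unmethylated on both copies, so that 50% would not be the level of a kept mark here. Counting the CpGs within 75 bases (the read length) of a CCGG site, 96 upstream and 179 downstream, a single methylated copy of the upstream part alone would give 17.5% if all of them were read equally, and the highest Gnas value was 1.01%. Plagl1 was at 0, 1, 0 and 0.952% in Smchd1 wt (day 2 lines 1 and 2, then day 2.5 lines 1 and 2) and at 0, 0.714, 0.556 and 1.58% in Smchd1 matΔ, so line 2 stood above line 1 in every group.

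Grb10 internal and Zrsr1 were slightly higher, with means over the 8 libraries of 1.22 and 0.746%. For Zrsr1 this rested on Smchd1 matΔ. In Smchd1 wt its group means at day 2 and day 2.5 were 0.286 and 0.125%, below the 0.5 and 0.476% of Plagl1. Grb10 internal was at 0.203, 0.837, 0.222 and 1.23% in Smchd1 wt and at 3.15, 0.181, 3.20 and 0.713% in Smchd1 matΔ, in the same order of day and line. Its spread followed the cell line rather than the day. The lines averaged 3.18 and 0.447% in Smchd1 matΔ and 0.213 and 1.03% in Smchd1 wt, so the genotypes overlapped. Zrsr1 was at 0.572, 0, 0.25 and 0% in Smchd1 wt and at 2.67, 1.11, 0.813 and 0.557% in Smchd1 matΔ. The Smchd1 matΔ lines were above the Smchd1 wt lines at both days for Zrsr1, although every value stayed under 3%.

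Peg13, a paternally expressed non-coding RNA, carried the highest mean of the 10 islands over the 8 libraries. This rank rested on Smchd1 matΔ at day 2. Airn was higher in Smchd1 matΔ at day 2.5 (group means of 12.1 against 7.09%), and Igf2r was higher in Smchd1 wt at both days. Peg13 was at 2.38 and 5.88% in Smchd1 wt and at 18.2 and 21.9% in Smchd1 matΔ at day 2. At day 2.5 it was at 0 and 1.39% in Smchd1 wt and at 12.2 and 1.96% in Smchd1 matΔ. The genotypes did not overlap at either day, by 12.3 points at day 2 and by 0.572 points at day 2.5, where Smchd1 matΔ line 2 lay close to the Smchd1 wt lines. The mean difference of Smchd1 matΔ minus Smchd1 wt was 15.9 percentage points at day 2 (SE 3.45, 95% interval 7.64 to 24.2, limma unadjusted p = 0.00296, Benjamini-Hochberg adjusted p = 0.646 over 7196 islands). It was number 8 of the 7461 islands by the size of the difference at that day. At day 2.5 the difference was 6.40 points (SE 3.45, 95% interval -1.89 to 14.7, limma adjusted p = 0.960), and without the library of Smchd1 matΔ line 1 it was 1.27 points. With each line averaged over its days, the Smchd1 wt lines stood at 1.19 and 3.64% and the Smchd1 matΔ lines at 15.2 and 11.9%, a difference of 11.2 points (SE 1.74, 95% interval 6.52 to 15.8, limma unadjusted p = 0.00207, adjusted p = 0.854). No test of Peg13 passed the threshold of an adjusted p of 0.05, and the largest value was 43.9% of the 1-allele level.

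Airn, the non-coding RNA whose unmethylated paternal promoter drives silencing of Igf2r, had the second highest mean over the 8 libraries, which rested on Smchd1 matΔ and mainly on 1 library at 20.2%. In Smchd1 wt at day 2 it was below both Igf2r and Peg13. It was at 4 and 1.297% in Smchd1 wt and at 6.67 and 9.46% in Smchd1 matΔ at day 2. At day 2.5 it was at 5.57 and 0.769% in Smchd1 wt and at 20.2 and 4.05% in Smchd1 matΔ. The genotypes did not overlap at day 2 and overlapped at day 2.5, where a single library held the high value. The mean difference was 5.42 points at day 2 (SE 4.89, 95% interval -6.34 to 17.2, limma adjusted p = 0.970) and 8.94 points at day 2.5 (SE 4.89, 95% interval -2.82 to 20.7, limma adjusted p = 0.960). Without Smchd1 matΔ line 1, the day 2.5 difference was 0.878 points. The mean over all islands was also highest in that line, 1.62% at day 2 and 1.58% at day 2.5 against 1.41 to 1.49% in the other libraries. With libraries scaled to the same mean, the differences at day 2 and day 2.5 were 5.10 and 8.36 points for Airn. For Peg13 they were 15.1 and 6.08 points. The part of the line's higher mean in these values was not tested further. With lines averaged over the days the Airn difference was 7.18 points (SE 2.69, limma unadjusted p = 0.05002, adjusted p = 0.854).

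The Igf2r promoter was the most even of the 3 higher islands. It was at 9.34, 4.39, 4.196 and 5.79% in Smchd1 wt and at 6.08, 5.65, 3.06 and 6.37% in Smchd1 matΔ, and none of its 8 values was 0. The genotypes overlapped at both days, with differences of -1.001 points at day 2 (SE 1.90, 95% interval -5.57 to 3.57) and -0.28 points at day 2.5 (SE 1.90, 95% interval -4.85 to 4.29), both with a limma adjusted p of 1. In the order of means over all libraries, Peg13, Airn and Igf2r, the neighbours did not separate, since the 8 values of each overlapped those of the next. In Smchd1 wt alone Igf2r came first, with line means of 6.77 and 5.09% against 1.19 and 3.64% for Peg13 and 4.78 and 1.03% for Airn, so that its lines lay above those of both. The Igf2r promoter is the target of Airn and not a germline mark, and in Smchd1 wt its mean exceeded that of Airn at both days (6.87% ± 3.50 and 4.99% ± 1.13 against 2.65% ± 1.91 and 3.17% ± 3.39, SD, n = 2 lines each), by less than the sum of the SDs.

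The other promoters without a germline mark stayed under 3%. Inpp5f, which encodes a phosphoinositide phosphatase, was above 0 in only 3 libraries, all of line 2, at 1.04% in Smchd1 wt at day 2.5 and at 0.833 and 2.67% in Smchd1 matΔ at day 2 and day 2.5. Grb10 upstream was at 0.769, 0.4, 0.870 and 1.07% in Smchd1 wt and at 1.19, 0.769, 0 and 0% in Smchd1 matΔ. The values of the genotypes met at day 2, and at day 2.5 both Smchd1 matΔ lines were listed at 0, below both Smchd1 wt lines.

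Between the genotypes, most of the islands had a higher mean in Smchd1 matΔ, and no island passed the test. At day 2 the mean was higher in 8 of 10 islands and lower in Plagl1 and Igf2r, and at day 2.5 it was higher in 7, lower in Grb10 upstream and Igf2r and equal in Mcts2. Over all 7461 islands it was higher in 3369, lower in 3306 and equal in 786 at day 2, and higher in 3224, lower in 3460 and equal in 777 at day 2.5. The count at day 2 includes islands whose sign rests on 1 library. Without line 1 of Smchd1 matΔ the day 2 difference was 0 at Gnas and -0.34 points at Grb10 internal, and without line 2 it was 0 at Inpp5f and -0.69 points at Mcts2. At day 2.5, without line 1, it was 0 at Gnas and -0.0143 points at Grb10 internal, and without line 2 it was -0.52 points at Inpp5f. The median difference over the 10 islands was 0.462 points at day 2 and 0.575 points at day 2.5, against 0 over all islands tested at both days. Both Smchd1 matΔ lines lay above both Smchd1 wt lines at 3 islands at day 2 (Peg13, Airn and Zrsr1), where 12.3% of all islands did, and at 2 at day 2.5 (Peg13 and Zrsr1), where 11.4% did. Both lay below at 0 islands at day 2, where 11.7% of all islands did, and at 1 at day 2.5 (Grb10 upstream), where 13.1% did. With 10 islands, a share of that size would be about 1, and the counts of 3 and 2 are given as a description. An exact permutation test of 2 lines against 2 cannot give a p below 0.333.

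**Figure D3:**
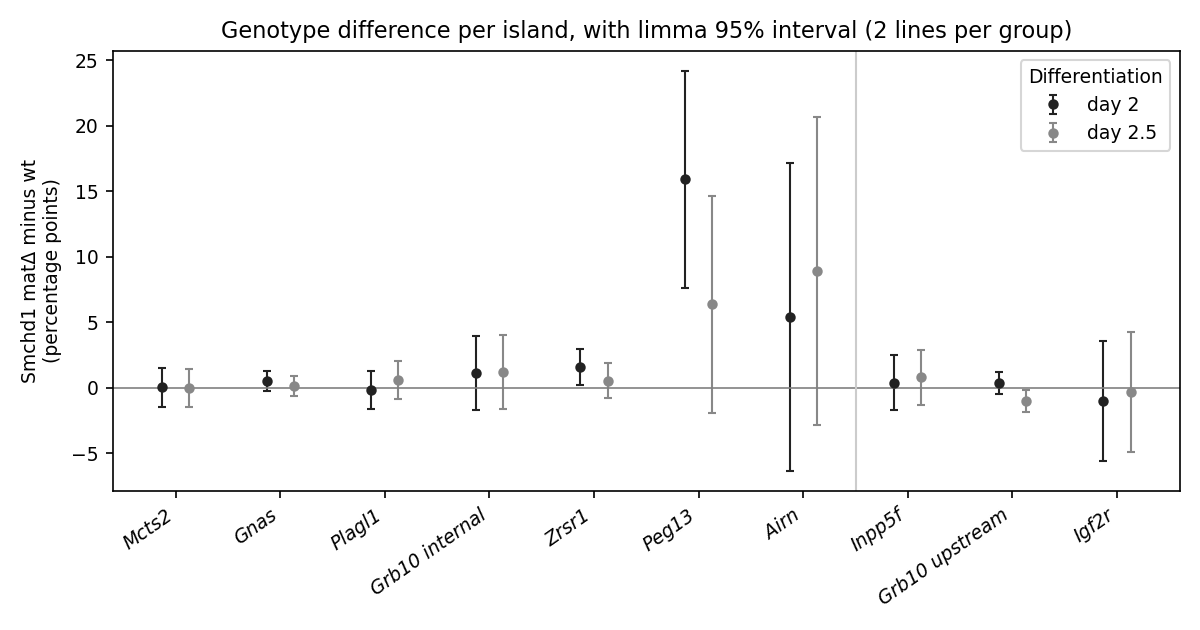
Difference of Smchd1 matΔ minus Smchd1 wt for each island (vertical axis, percentage points) at day 2 (black) and day 2.5 (grey), with 2 lines per group and bars for the 95% interval from limma. Peg13 at day 2 lies farthest from 0, at 15.9 points with an interval of 7.64 to 24.2, and the bars of Airn, the widest, cross 0 at both days.

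In the limma fit over 7196 islands, 0 of the 10 islands had a Benjamini-Hochberg adjusted p under 0.05 for the genotype difference at day 2, at day 2.5 or averaged over the days. Over all islands tested 0% did so in each of these 3 comparisons, and 303, 309 and 375 islands had an unadjusted p under 0.05. Of the 10 islands, 2 did at day 2 (Peg13 and Zrsr1, the latter with a difference of 1.60 points, SE 0.563, limma unadjusted p = 0.0269, adjusted p = 0.968). The Zrsr1 difference was 0.825 points without Smchd1 matΔ line 1 and 2.38 points without line 2. At day 2.5 it was 1, Grb10 upstream, with a difference of -0.97 points (SE 0.344, limma unadjusted p = 0.0278, adjusted p = 0.960), and averaged over the days it was Peg13. The 5 islands Mcts2, Gnas, Inpp5f, Plagl1 and Grb10 internal had differences from -0.14 to 1.146 points at day 2 and from 0 to 1.23 points at day 2.5, and all their 95% intervals held 0. The widest of these intervals, for Grb10 internal, ran from -1.60 to 4.06 points at day 2.5, so that a higher level by up to 4.06 points lies within the error.

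Between day 2 and day 2.5, Peg13 was the island with the largest difference between the days in Smchd1 matΔ. Its value at day 2.5 was below that at day 2 in 4 of 4 lines, with changes of -2.38 and -4.49 points in Smchd1 wt and of -5.96 and -19.97 points in Smchd1 matΔ. The mean change was -12.96 points in Smchd1 matΔ (SE 3.45, 95% interval -21.2 to -4.68, limma unadjusted p = 0.00813, adjusted p = 0.747) and -3.44 points in Smchd1 wt (SE 3.45, limma adjusted p = 0.986). The difference between these changes was itself tested and was -9.53 points (SE 4.87, limma unadjusted p = 0.0948, adjusted p = 0.867). These tests did not pair the libraries of a line. With cell line as a block, the smallest limma adjusted p among the 10 islands was 0.950 for the change in Smchd1 matΔ. The lines of Airn differed in sign, with changes of 13.5 points in line 1 and -5.41 points in line 2 of Smchd1 matΔ and of 1.57 and -0.528 points in Smchd1 wt. Igf2r was lower at day 2.5 in line 1 and higher in line 2 of both genotypes, with changes of -5.14 and 1.396 points in Smchd1 wt and of -3.01 and 0.712 points in Smchd1 matΔ, although lines of different genotype share only a number. Grb10 upstream was higher at day 2.5 in both Smchd1 wt lines, with changes of 0.1003 and 0.671 points, and lower in both Smchd1 matΔ lines, with changes of -1.19 and -0.769 points. In the 3 comparisons that involve the days (the change in Smchd1 wt, the change in Smchd1 matΔ and the difference of these changes), limma called 0 of the 10 islands and 0% of the 7196, and an unadjusted p under 0.05 was given to 293, 317 and 336 of all islands. Of the 10 islands 0 had one in Smchd1 wt, 2 in Smchd1 matΔ (Peg13 and Grb10 upstream) and 1 for the difference of the changes (Grb10 upstream).

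**Figure D4:**
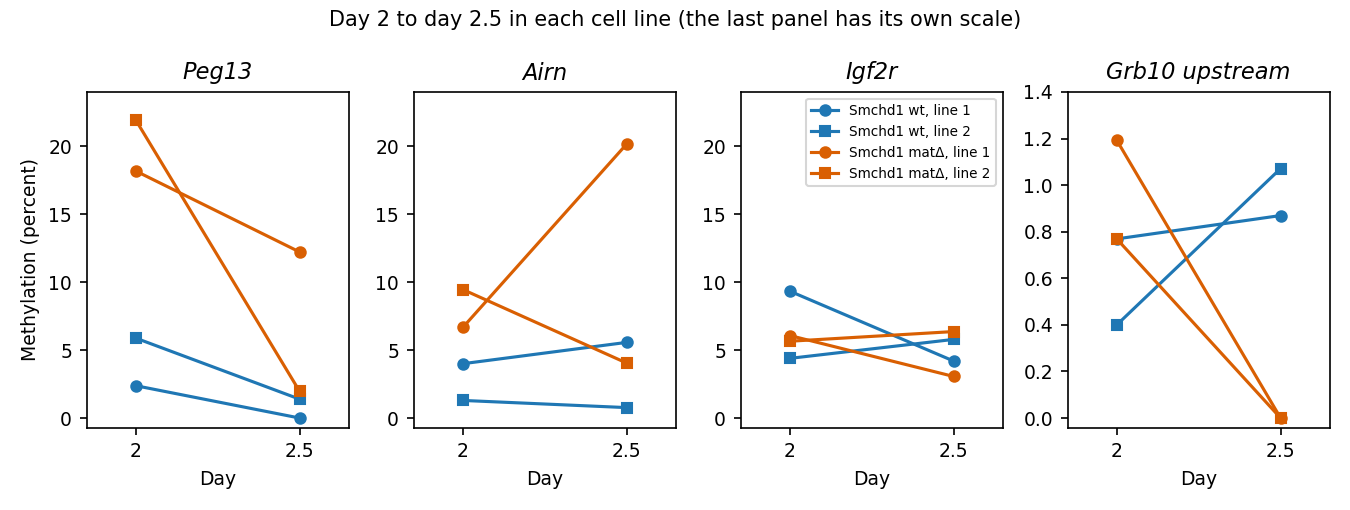
Methylation (vertical axis, percent) at day 2 and day 2.5 (horizontal axis) for Peg13, Airn, Igf2r and Grb10 upstream, with 1 line per mESC line and a separate scale of 0 to 1.4% for Grb10 upstream. All 4 lines slope down at Peg13, whereas at Airn Smchd1 matΔ line 1 ends at 20.2% and line 2 at 4.05%, and at Grb10 upstream both Smchd1 matΔ lines end at 0.

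Over libraries, the mean of the 10 islands lay between 1.11 and 1.73% in the 4 Smchd1 wt libraries and was 3.89, 4.21, 4.04 and 1.79% in those of Smchd1 matΔ. The medians were 0.387, 0.918, 0.111 and 0.997% in Smchd1 wt and 1.93, 0.972, 0.684 and 1.14% in Smchd1 matΔ, so the genotypes overlapped by the median, and the higher means rested on Peg13 and Airn.

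Other imprinted regions could not be set beside these islands. Of 14 further genes with a germline-imprinted region (Nnat, Mest, Nap1l5, Peg10, Peg3, Snrpn, Kcnq1ot1, H19, Meg3, Rasgrf1, Slc38a4, Zdbf2, Nespas and Cdh15), 9 had a listed island within 2 kb of a transcript start and 0 had one with a value. Around the 10 islands, 13 other islands were listed within 100 kb and 3 of them had values. The highest was at Bag3, a co-chaperone gene 86950 bp from the Inpp5f island, with a mean of 8.63% and a range of 4.42 to 12.7%, above the 0.568% of Inpp5f. The islands nearest Sf3b5 and Cct4 had means of 0.173 and 0.332%.

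For the 3 islands with a mean of at least 5%, the islands with the smallest mean absolute difference over the 8 libraries were near genes that are not in the imprinted lists used here. Nearest to Peg13 was the island at the start of Wnt7b (3.41 points), at 7.69, 10, 5.56 and 0% in Smchd1 wt and 16.7, 20, 8.33 and 5.56% in Smchd1 matΔ. The next to Peg13 were islands nearest Apaf1 (3.89 points) and Cybrd1 (4.52 points). For Airn they were those nearest Gpc2 (2.36 points), Gm44341 (2.62 points) and Gm45441 (2.76 points), and for Igf2r those nearest Pdlim1 (0.842 points), Skor2 (0.858 points) and Doc2b (1.24 points). These islands were picked from 7461 for their likeness.

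Peg13, Airn and Zrsr1 were the poorest in CpG, with 7.51, 7.82 and 7.46 CpGs per 100 bases against a median of 10.6 over all islands with a value. Zrsr1 stayed under 3% in every library. Peg13 and Airn held 5 CCGG sites each against a median of 11, and 72.7 and 62.2% of their CpGs lay within 75 bases of one against a median of 88.8%, so that a smaller share of their CpGs was within the reach of a read from a site inside the island. Igf2r, the other higher island, had 11.7 CpGs per 100 bases, 9 CCGG sites and 73.0% of its CpGs within that distance, and Gnas, at 1.01% or less, had 76.4%. The methylated motif of ZFP57, searched as TGCCGC on both strands, was present in 8 of the 10 islands and in 63.9% of all islands with a value. Peg13 had 8.53 matches per kb, Plagl1 7.82, Mcts2 7.13, Airn 6.67 and Grb10 internal 3.90, against a median of 1.13 over all islands. Of the others Grb10 upstream had 2.47, Gnas 1.56 and Igf2r 1.05, and Inpp5f and Zrsr1 had 0. Plagl1 and Mcts2, which stayed under 2% in every library, lay between Peg13 and Airn in the number of matches per kb. Whether any of these sequence features is related to the methylation level was not tested.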

How the data were processed

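RRBS libraries were made from genomic DNA of 4 male mESC lines at day 2 and day 2.5, and groups follow the genotype, day and line in the labels. Per the study's methods, reads were trimmed by the authors (TrimGalore with Cutadapt 1.15, then a script for diversity bases), who mapped 75 bp single-end reads to GRCm38.p6 with Bismark 0.20.0, and computed methylation per CpG island in SeqMonk, where islands with over 10 reads in all libraries were kept. The deposited files hold the percent of methylated calls for each island in each library. These values were used as deposited, without normalisation between libraries.

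No read counts accompany them, so depth per island is unknown and no counting interval is given. Few reads make a level move in large steps, single CpGs are averaged, and a conversion or mapping difference between copies would shift the level of 1 methylated allele away from 50%.

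All 7461 islands with a value entered, except 265 with 1 value in all libraries, which left 7196. The percentages entered limma 3.58.1 (R 4.3.3), in 1 fit (1 mean per group, 4 residual degrees of freedom, trended variance, two-sided moderated tests, Benjamini-Hochberg adjustment over 7196 islands, threshold 0.05). The average over the days used 1 value per line. The step was tested on simulated data, which were shuffled values with a shift added to some islands. Recovery was required only for the larger of the shifts tried and only in the comparisons at a single day. The simulation therefore does not show that smaller differences, or differences averaged over the days, would be found. The study's lines come from separate blastocysts. Coordinates and letters are from the GRCm38 reference, where 100% of the islands begin and end with CG, genes are from GENCODE M21, and counts were made in Python 3.11.15 with pandas 2.3.3.

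The islands and lists were chosen with earlier results of these data known. All 10 islands are named, as are the highest neighbour within 100 kb and, for islands with a mean of at least 5%, the 3 islands most alike.

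Day 2 and day 2.5 libraries with the same number and genotype are the same cell line and so are paired. The main fit of the day changes does not use this pairing. Across 7461 islands, Pearson's r between the days of the line 2 minus line 1 difference was -0.0628 for Smchd1 wt and 0.197 for Smchd1 matΔ. Alternatives were a log2 scale with an offset of 1 point, a minimum mean of 1%, libraries scaled to 1 mean, robust moderation, 4 libraries only, a replicate block, other ranges around 50%, and leaving out each library.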

Additional observations from a re-analysis of the deposited data

Results flagged for a closer look

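At the Grb10 upstream promoter, the change from day 2 to day 2.5 in Smchd1 matΔ minus that in Smchd1 wt was -1.37 percentage points (SE 0.486, 95% interval -2.54 to -0.20), 1 of 10 islands for which the lines of the genotypes all moved in opposite directions or for which the difference passed a test. The Smchd1 wt lines went from 0.769 and 0.4% to 0.870 and 1.07%, and the Smchd1 matΔ lines from 1.19 and 0.769% to 0 and 0%. The limma test of the difference gave an unadjusted p of 0.0282 and an adjusted p of 0.867, so it did not pass the threshold. All 8 values are under 1.2%, in a table whose depth is unknown.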

How the results depend on the processing

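No alternative made any of the 10 islands pass an adjusted p of 0.05 in limma. The smallest adjusted p among them ranged over the alternatives from 0.129 to 0.973 at day 2, 0.128 to 0.976 at day 2.5, 0.516 to 0.905 averaged over the days, 0.753 to 1 and 0.0790 to 0.950 for the day change in Smchd1 wt and Smchd1 matΔ, and 0.210 to 0.991 for the difference of these changes. With the replicate block (cell line for the days, line number for the genotypes) 0 islands were called, as without it. The block by line number pairs unrelated lines of the 2 genotypes, so it is no matching of replicates. Pearson's r between the genotypes of the line 2 minus line 1 difference was 0.0359 at day 2 and -0.0167 at day 2.5. Leaving out libraries gave up to 251 calls among all islands, in fits where a group kept 1 library that was assumed to vary like the others, and none was among the 10.

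Of 80 differences with 1 library left out, 10 changed sign. The ranges were -0.69 to 0.78 for Mcts2, -0.64 to 0.36 for Plagl1, -0.34 to 2.63 for Grb10 internal and -3.48 to 1.47 for Igf2r at day 2, and -0.52 to 2.15 for Inpp5f, -0.0143 to 2.47 for Grb10 internal and -1.93 to 1.37 for Igf2r at day 2.5. Without both libraries of Smchd1 matΔ line 1, an alternative chosen after seeing the data, Plagl1 was at 0.21 and Grb10 internal at -0.34 at day 2, and Grb10 internal at -0.0143 and Igf2r at 1.37 at day 2.5. Peg13 kept a positive difference with each library left out, of 14.1 to 17.8 at day 2 and 1.27 to 11.5 at day 2.5, and Airn of 4.02 to 6.81 and 0.878 to 17.0. No sign changed on the log2 scale or after scaling. Robust moderation, the block and the fits of 4 libraries leave each difference of group means as it was. Its sign could not change there, so these settings do not test it.

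A range of 20 to 80% held 2 of the 80 values, Peg13 at 21.9% and Airn at 20.2%, a range of 35 to 65% held 0, and 0 of the 10 means lay between 25 and 75%. Of the 4 of the 10 islands with a mean of at least 1%, 2 did not overlap between the genotypes at day 2 and 1 at day 2.5, where all 10 gave 3 at each day. Of the 1243 islands of the table with such a mean, both Smchd1 matΔ lines lay above in 213 and 217 and below in 174 and 184 at the same days. Unknown depth limits every value near 0.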
